A study of Homo sapiens with 58 samples.

Results

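Serum-starved HaCaT-EGFR cells were set against serum-starved HaCaT-vector cells, both without inhibitor, to describe how 2 derivatives of one keratinocyte line differed before any ligand was given. HaCaT is an immortalized line of human epidermal keratinocytes. HaCaT-EGFR was made from it to overexpress wild-type EGFR, and HaCaT-vector carries the empty vector. The comparison took 11 of the 58 arrays (Affymetrix U133 Plus 2.0), chosen by their labels of line, medium and treatment, 7 of HaCaT-EGFR and 4 of HaCaT-vector. The HaCaT-EGFR arrays were unstimulated controls of 4 h (5 arrays) or 8 h (2 arrays), and all HaCaT-vector arrays were controls of 4 h. Cells of both lines had been kept in medium without serum, and neither received EGF or TNF-α. Whether each line is 1 clone or a pool was not stated, and neither was whether replicates were cultured apart. A p-value here therefore speaks for the spread among the arrays, which may be technical. The other arrays of the series hold the same lines in serum or with ligand, the parental line, a line that overexpresses the NF-κB subunit p65 and a line with active HRAS.

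EGFR is a receptor tyrosine kinase of the ERBB family. Ligands such as EGF, TGF-α and amphiregulin make it dimerize and phosphorylate itself, and it then signals through the MAP kinase cascade, PI3K and AKT, STAT3 and, less directly, NF-κB. In epidermis it keeps basal keratinocytes dividing and restrains their terminal differentiation. Signals of the TGF-β and BMP family run beside it through SMAD proteins. The SMADs of BMP signals induce the ID genes, small inhibitors of basic helix-loop-helix transcription factors. Starved cells have no added ligand, so what they show is the state of each line with only the ligands that the cells make.

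Both sets of arrays had the RNA of keratinocytes. The 10 measured keratinocyte markers averaged between 10.07 and 10.78 over the HaCaT-EGFR arrays and between 10.24 and 10.34 over the HaCaT-vector arrays on the deposited log2 scale, on which 1 unit is a 2-fold difference. KRT5, a basal keratin among them, read 11.51 to 12.66 (median 12.54) in HaCaT-EGFR and 11.90, 11.95, 11.96 and 12.03 in HaCaT-vector. Lines were compared with limma's moderated test in a fit to all arrays of the series, with Benjamini-Hochberg adjustment over 19775 genes and an adjusted p under 0.05 called a difference. None of the 10 markers passed, and 1 was higher at an unadjusted p under 0.05. Markers of fibroblasts averaged 5.23 to 5.73 in HaCaT-EGFR and 5.82 to 5.97 in HaCaT-vector, which do not overlap, and those of melanocytes, leukocytes and endothelium stayed between 4.40 and 4.88 in all 11 arrays. LUM, a collagen-binding proteoglycan of connective tissue, and MITF, the melanocyte factor, were the markers of other cell types that passed, among 10, 7, 6 and 7 measured for these cell types, by -2.61 and -0.75. Both calls were lost without the HaCaT-vector array of date 6 described next, and the part of such cells in other results was not tested.

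The arrays of these lines were processed on 6 dates, numbered here in order, and date 6 alone held both lines starved, with 3 HaCaT-EGFR arrays and 1 HaCaT-vector array. Of the others, 4 HaCaT-EGFR arrays belong to dates 2 and 3 and 3 HaCaT-vector arrays to dates 4 and 5. The deposited values have a date effect already removed, and the fit of condition and date gave all its net weight in this comparison to date 6. There the starved HaCaT-vector array alone carried a weight of -0.633 and the HaCaT-vector array with EGF -0.367, against 0.238 for each starved HaCaT-EGFR array. Arrays of the other dates entered with weights that cancel within each date. Neither non-overlap of the 7 and 4 arrays nor a fit to date 6 alone is therefore a separate check of a difference. The values of date 6 are given beside the results. Per the study's sample sheet the RNA of date 6 was extracted with Trizol and that of the other dates with a column kit. Arrays of the same line correlated at 0.982 to 0.995 across genes (HaCaT-EGFR) and 0.997 to 0.998 (HaCaT-vector), and arrays of different lines at 0.975 to 0.983.

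The transcript of the introduced gene did not pass the test in starved cells. Which probe sets lie within the introduced sequence was not given in the sources used here. EGFR has 9 probe sets, and on the 2 named 210984_x_at and 211607_x_at the arrays of the lines did not overlap. On 211607_x_at the HaCaT-EGFR arrays ranged from 7.02 to 7.47 with a median of 7.27, and the HaCaT-vector arrays gave 6.85 (date 4), 6.70 and 6.63 (date 5) and 6.69 (date 6). On 210984_x_at they ranged from 6.86 to 7.30 with a median of 7.08, against 6.64, 6.63, 6.37 and 6.53. All HaCaT-EGFR arrays were above all HaCaT-vector arrays on both, but 19.7% of all genes had no overlap, so no difference is read from that. The fitted differences were 0.57 (SE 0.194) on 211607_x_at and 0.54 (SE 0.206) on 210984_x_at, in log2 units. Their adjusted p was 0.0809 and 0.134 (limma), over all 41097 probe sets with 1 gene symbol. In serum, on other arrays, the same probe sets differed by 0.98 (adjusted p = 9.14e-05) and 1.00 (adjusted p = 0.000154). The ending x_at marks probe sets whose probes can also bind other transcripts. The other 7 probe sets differed by between -0.46 and 0.15, with adjusted p of 0.707 or more, and 224999_at, the brightest and the one that stands for the gene below, read 9.46 to 9.60 in HaCaT-vector and 9.48 to 9.79 in HaCaT-EGFR.

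**Figure D1:**
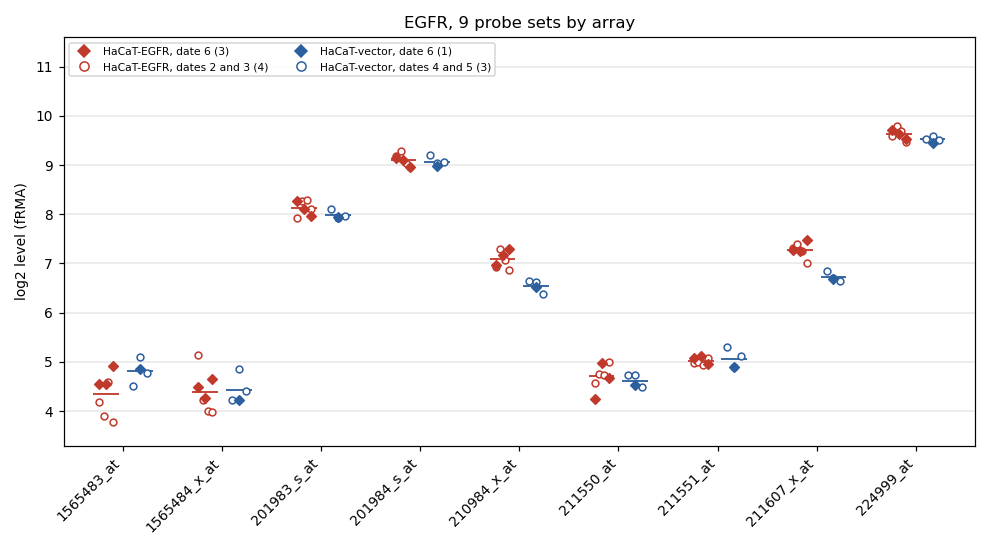
The deposited log2 level of the 9 EGFR probe sets (x axis) in each starved array, with diamonds for date 6, circles for other dates and a line at each group's mean. The arrays of the lines do not overlap on 210984_x_at and 211607_x_at, where the HaCaT-vector arrays reach at most 6.64 and 6.85, but neither passed the test.

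Across the 19775 genes, 1560 (7.89%) differed between the starved lines at an adjusted p under 0.05. They split evenly, with 781 (3.95%) higher and 779 (3.94%) lower in HaCaT-EGFR, and the median change of all genes was -0.004. A change of at least 1 log2 unit was reached by 253 of the higher and 283 of the lower genes, and of at least 2 units by 43 and 66. The fit to the arrays of date 6 alone called 812 genes (4.11%), of which 698 were among the 1560, and all 1560 had the same sign there. The arrays of date 6 also carry the main fit, so the same sign there is no separate check. The single HaCaT-vector array of date 6 decided the size of the list. Without it the fit called 372 genes (365 of them among the 1560), and without any of the other 10 arrays it called 1315 to 1779. All 1560 kept their sign without the HaCaT-vector array of date 6, though the 2 fits share all other arrays. The size of change moved little in some genes (CDKN1A, -1.18 with that array and -1.16 without) and more in others (PPARGC1A, -2.78 and -1.86). In all, 362 of the 1560 passed whichever of the 11 arrays was left out.

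About as many genes separated the same lines in serum. That comparison rests on the arrays of date 1, which have no weight in the starved one, and called 1556 genes (7.87%), 785 higher (3.97%) and 771 lower (3.9%) in HaCaT-EGFR. Of the genes called between the starved lines, 811 were called in the same direction in serum, which is 52% of the starved and 52.1% of the serum list, and 1 was called in the opposite direction. With EGF, where the arrays of date 6 again carry the weight, 1469 genes (7.43%) were called. The 2 lines thus differed in many of the same genes with and without serum. Whether a difference came with the introduced gene or with the history of either line cannot be told apart in a design with 1 line of each kind.

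**Figure D2:**
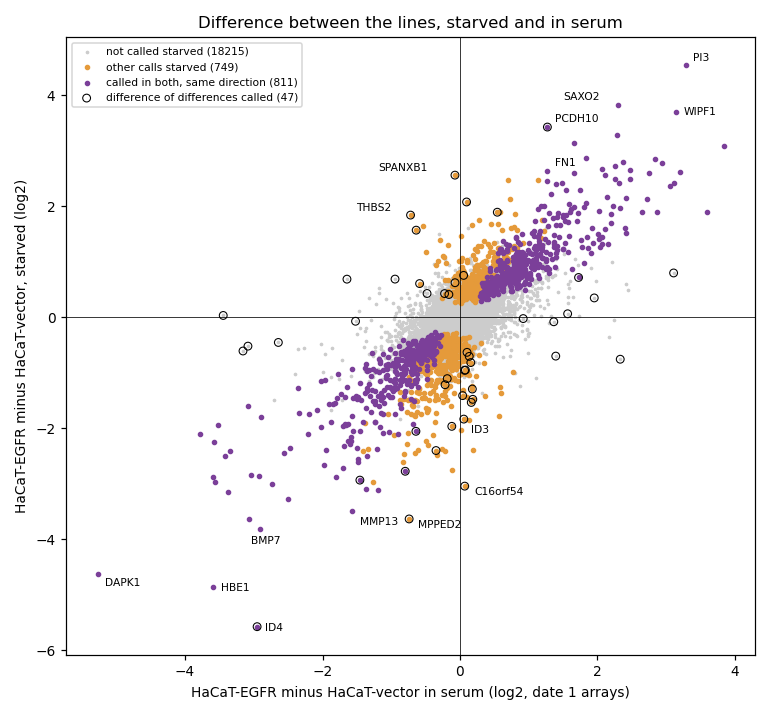
Each point is a gene, with the HaCaT-EGFR minus HaCaT-vector difference in serum (x axis, log2, arrays of date 1) and starved (y axis, log2). Purple genes (811) were called in both with the same sign, orange ones (749) are the other genes called starved, and rings mark the 47 whose differences were called unequal.

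Genes that passed whichever array was left out are described first, the 12 largest rises and the 12 largest falls. In most of them the mean of one line was below 5, about where the markers of other cell types lay. The files hold no detection call, so such a level is not known to be above background, and a difference from it is given in log2 units with no fold. Where a fold is given, the means of both lines were above 5, though single arrays could read lower. Among the rises were genes of barrier defence, cell guidance and the cytoskeleton. PI3 encodes elafin, an elastase inhibitor that keratinocytes secrete in inflamed epidermis. PI3 ranged from 8.55 to 10.48 (median 9.37) in the HaCaT-EGFR arrays and was 5.01 (date 4), 4.95 and 4.95 (date 5) and 4.68 (date 6) in the HaCaT-vector arrays. The lowest HaCaT-EGFR array was over 3 log2 units above the highest HaCaT-vector array. The difference was 4.54 log2 units (SE 0.518, adjusted p = 3.86e-08). In HaCaT-vector WIPF1, a partner of WASP that steers actin polymerization, read 4.87, 4.95, 5.07 and 4.83 in the order of the dates, and in HaCaT-EGFR it lay between 8.26 and 9.00 with a median of 8.59. The difference was 3.69 log2 units (SE 0.624, adjusted p = 4.92e-05). SLIT2, the secreted ligand of ROBO guidance receptors, read 7.74 at the lowest, 8.19 at the median and 8.37 at the highest in HaCaT-EGFR, against 4.97, 4.79, 5.27 and 4.77 in HaCaT-vector. No arrays of the lines overlapped, and the difference was 3.14 log2 units (SE 0.308, adjusted p = 1.14e-09). GPC6, a cell-surface heparan sulfate proteoglycan, ranged from 8.60 to 9.47 (median 8.76) in the HaCaT-EGFR arrays and was 6.04 (date 4), 5.99 and 6.10 (date 5) and 5.89 (date 6) in the HaCaT-vector arrays. It differed by 2.87 log2 units (SE 0.277, adjusted p = 7.1e-10), or 7.31-fold higher.

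A pair of protocadherins, adhesion molecules of the cadherin family, rose with them. In HaCaT-vector PCDH10 read 2.32, 2.60, 2.46 and 2.55 in the order of the dates, and in HaCaT-EGFR it lay between 5.27 and 6.68 with a median of 5.83. It differed by 3.43 log2 units (SE 0.349, adjusted p = 2.76e-09), and more than in serum, as described below. PCDH18 read 7.04 at the lowest, 7.22 at the median and 7.45 at the highest in HaCaT-EGFR, against 4.21, 4.47, 4.45 and 4.94 in HaCaT-vector. It differed by 2.72 log2 units (SE 0.285, adjusted p = 5.53e-09), its HaCaT-vector array of date 6 was the highest of the 4, and without that array the difference was 3.45. BLMH, a cysteine protease that takes part in the breakdown of filaggrin to free amino acids, read 7.76 to 8.10 (median 7.85) in HaCaT-EGFR and 4.17, 4.65, 4.81 and 4.83 in HaCaT-vector and differed by 3.28 log2 units (SE 0.495, adjusted p = 8.71e-06). Of the other leading rises, SAXO2, which binds microtubules of cilia, changed by 3.83 log2 units (SE 0.332, adjusted p = 4.39e-11), and SMIM17 and C8orf48, of little known function, by 2.85 and 2.79. The leading rises also held 2 zinc finger genes of chromosome 19, ZNF677 (3.09) and ZNF570 (2.78). None of the 12 had overlapping arrays. They were chosen by size of change in these same arrays, so this is no separate support. Of the 1560 called genes 1533 had no overlap, beside 19.7% of all genes. In date 6 alone, which is no separate check, the 12 rises differed by 2.31 to 4.78.

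The fall named first was that of ID4, one of the 4 inhibitor of DNA binding proteins. ID4 ranged from 3.76 to 4.79 (median 4.12) in the HaCaT-EGFR arrays and was 9.37 (date 4), 9.77 and 9.76 (date 5) and 9.80 (date 6) in the HaCaT-vector arrays. The HaCaT-EGFR arrays were all below 5 and the HaCaT-vector arrays all above 9, a difference of -5.58 log2 units (SE 0.362, adjusted p = 2.96e-14). In HaCaT-vector BMP7, a secreted BMP ligand that signals through SMAD1 and SMAD5, read 8.40, 8.63, 8.51 and 8.47 in the order of the dates, and in HaCaT-EGFR it lay between 4.38 and 5.37 with a median of 4.45. It differed by -3.81 log2 units (SE 0.278, adjusted p = 7.31e-13). DAPK1, a calcium and calmodulin regulated kinase of cell death and autophagy, read 3.99 at the lowest, 4.73 at the median and 6.35 at the highest in HaCaT-EGFR, against 9.55, 9.72, 9.28 and 9.51 in HaCaT-vector. Here 1 HaCaT-EGFR array reached 6.35, still about 3 log2 units below every HaCaT-vector array, and the difference was -4.62 log2 units (SE 0.419, adjusted p = 1.38e-10).

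HBE1, the embryonic epsilon globin, and MMP13, a collagenase of wound keratinocytes, followed. HBE1 ranged from 4.16 to 4.60 (median 4.50) in the HaCaT-EGFR arrays and was 9.32 (date 4), 9.22 and 9.29 (date 5) and 9.26 (date 6) in the HaCaT-vector arrays. The HaCaT-EGFR arrays all stayed below 5, and the difference was -4.86 log2 units (SE 0.272, adjusted p = 3.69e-16). In HaCaT-vector MMP13 read 8.81, 9.63, 9.57 and 9.50 in the order of the dates, and in HaCaT-EGFR it lay between 5.10 and 6.18 with a median of 5.98. The difference was -3.49 log2 units (SE 0.567, adjusted p = 2.69e-05), or 11.3-fold lower. NDN, an imprinted suppressor of growth, differed by -3.28, and MPPED2, a metallophosphoesterase, by -3.63. Genes of junctions, adhesion and the membrane skeleton were in the same group. They were CGNL1 (-3.11), which encodes the tight junction protein paracingulin, the cadherin CDH8 (-3.09) and the FERM domain protein FRMD3 (-3.63), with the PDZ protein GIPC2 (-3.16) and C16orf54 (-3.04). On other probe sets CDH8 changed by -0.59 to -0.15, CGNL1 by 0.03 and DAPK1 by -0.35, with adjusted p of 0.454 or more. Both lines averaged below 5 on these probe sets. BMP7 changed by -2.50 on 209591_s_at and -1.30 on 211259_s_at, with adjusted p of 0.00241 or less (limma). On 211260_at, where both lines averaged above 5, BMP7 changed by -0.13 with an adjusted p of 0.843. In date 6 alone, which is no separate check, the 12 falls differed by -5.73 to -2.94.

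**Figure D3:**
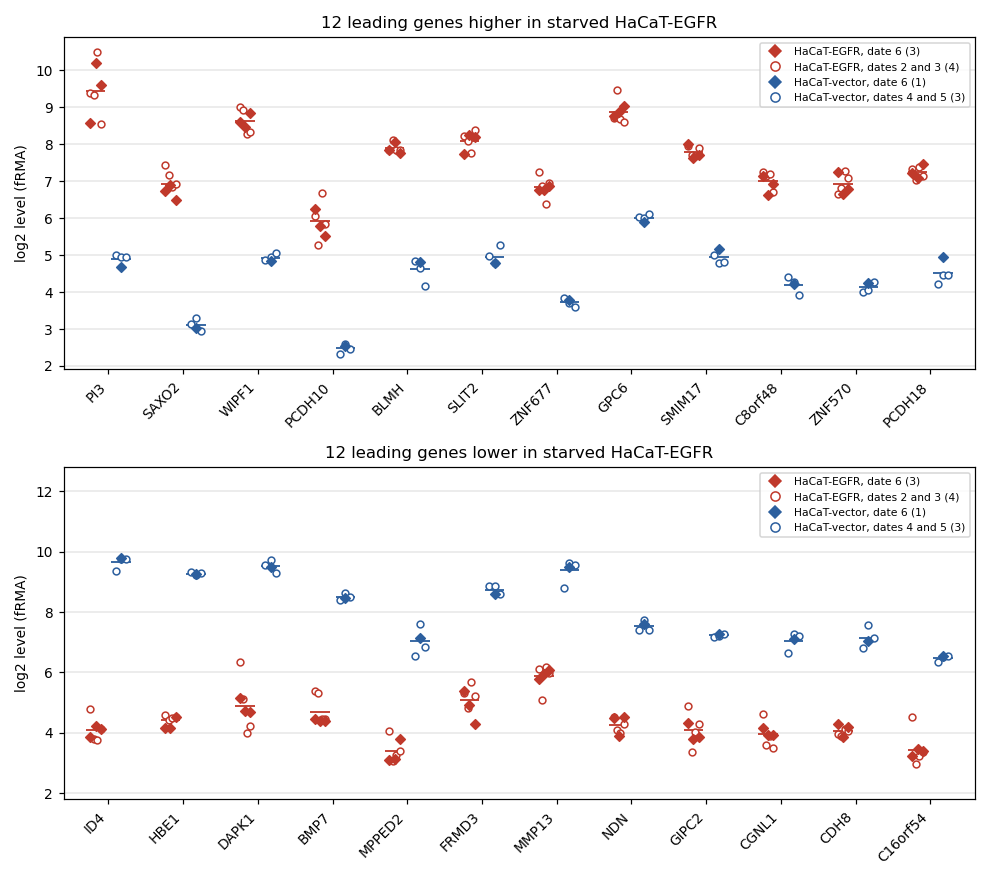
The deposited log2 level of the 12 leading rises (top) and 12 leading falls (bottom) in each starved array, with diamonds for date 6, circles for other dates and a line at each group's mean. In each of the 24 genes the arrays of the lines lie apart, which their choice by size of change in these arrays all but fixed.

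The parental line, measured in serum only, and the starved HaCaT-p65 cells gave levels to set beside those of each line. In serum, 767 genes (3.88%) separated HaCaT-EGFR from parental HaCaT and 568 (2.87%) separated HaCaT-vector from it. These comparisons share the 3 parental arrays, which differed widely among themselves in several of the genes below, with an SD of 1.49 for FRMD3, 1.34 for GIPC2, 1.26 for PI3, 1.18 for SMIM17, 0.879 for DAPK1 and 0.759 for HBE1. BMP7 was -3.60 in HaCaT-EGFR (adjusted p = 1.16e-13) and -0.70 in HaCaT-vector (adjusted p = 0.145) relative to the parental line. ID4 was -3.23 (adjusted p = 3.25e-09) and -0.28 (adjusted p = 0.904) in the same order. DAPK1 differed in both directions, at -3.76 in HaCaT-EGFR (adjusted p = 3.17e-09) and 1.51 in HaCaT-vector (adjusted p = 0.0116). HBE1 was -0.72 in HaCaT-EGFR (adjusted p = 0.0875) and 2.88 in HaCaT-vector (adjusted p = 2.69e-11) relative to the parental line, and in starved cells HaCaT-EGFR and HaCaT-p65 differed in it by 0.10 (adjusted p = 0.844). FRMD3 and GIPC2 were likewise above the parental line in HaCaT-vector, by 2.24 and 1.84, and GIPC2 also differed from it in HaCaT-EGFR, by -1.54. On the other side, PI3 was 0.91 in HaCaT-EGFR (adjusted p = 0.386) and -2.37 in HaCaT-vector (adjusted p = 0.000855) relative to the parental line. SMIM17 and SAXO2 likewise differed from the parental line by -2.23 and -2.19 in HaCaT-vector. In HaCaT-EGFR they differed from it by 0.60 and 0.11 with adjusted p of 0.337 and 0.947. The other leading rises were all above the parental line in HaCaT-EGFR at an adjusted p under 0.05. They ranged from 0.97 for SLIT2 to 2.64 for WIPF1. The parental arrays had an SD of 2.64 for WIPF1, 2.16 for ZNF677 and for BLMH, 1.52 for ZNF570 and 1.17 for C8orf48. The parental level of these genes is thus uncertain, while the SD was 0.34 or less for the others. Of the rises above the parental line in HaCaT-EGFR, ZNF570 and PCDH18 also differed from it in HaCaT-vector, by -1.67 and -1.14. The starved HaCaT-EGFR and HaCaT-p65 cells differed in 3058 genes (15.5%), 1601 higher (8.1%) and 1457 lower (7.37%) in HaCaT-EGFR. Of the leading falls, DAPK1, BMP7 and ID4 also differed between HaCaT-EGFR and HaCaT-p65, by -4.39, -3.35 and -1.46 (adjusted p = 0.000216 for ID4, limma). MMP13 differed by -1.14 with an adjusted p of 0.0784. NDN, CGNL1, CDH8, MPPED2 and C16orf54 differed by between -0.23 and 0.19 with adjusted p of 0.717 or more. In these 5 genes and in HBE1, FRMD3 and GIPC2 the starved HaCaT-p65 arrays reached at most 5.82, about where HaCaT-EGFR lay, and every HaCaT-vector array was above both lines.

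Counts of called genes in the pathway that EGFR drives were small in the starved cells, too small to set apart from the share of all genes. Of 13 measured ERBB receptors and their negative regulators, 1 rose and none fell, beside the 3.95% and 3.94% of all genes, and of 7 genes of EGFR ligands and their shedding protease none passed (1 was higher at an unadjusted p under 0.05). PTPN1, a tyrosine phosphatase that can act on EGFR, was the one that rose, from 7.75, 7.77, 7.85 and 7.88 in HaCaT-vector to 8.43 to 8.90 (median 8.71) in HaCaT-EGFR, 0.86 log2 units (SE 0.13, adjusted p = 9.44e-06), or 1.81-fold higher. The ligands TGFA, EREG and HBEGF differed by 0.38 with an adjusted p of 0.241, 0.31 with an adjusted p of 0.553 and 0.08 with an adjusted p of 0.943, and the direction of HBEGF turned under some alternatives. ERBB2, the partner receptor, differed by 0.26 with an adjusted p of 0.262. Among 28 genes that MAP kinase induces, 2 rose and 1 fell, beside 3.95% and 3.94% of all genes, with a list median of -0.05. DUSP4, a MAP kinase phosphatase, read 7.61 to 9.07 (median 8.54) in HaCaT-EGFR and 7.09, 7.18, 7.22 and 7.28 in HaCaT-vector and differed by 1.35 log2 units (SE 0.276, adjusted p = 0.000725), or 2.54-fold higher, and the chromatin protein HMGA2 rose by 1.01. Neither passed without the HaCaT-vector array of date 6 (adjusted p = 0.0501 and 0.294). EPHA4, an ephrin receptor, fell by 1.49. DUSP5, another such phosphatase, differed by 0.69 with an adjusted p of 0.0847, with overlapping arrays.

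Of 17 measured genes that FOXO factors induce, and that PI3K and AKT hold down, 2 fell and none rose, beside 3.94% and 3.95% of all genes, and the list median was -0.29 against -0.004 over all genes. SESN3, a sestrin that restrains mTOR signalling, read 4.91 at the lowest, 5.44 at the median and 5.99 at the highest in HaCaT-EGFR, against 7.95, 8.17, 8.10 and 7.96 in HaCaT-vector. The lines did not overlap, and the difference was -2.55 log2 units (SE 0.335, adjusted p = 6.08e-07), or 5.85-fold lower. SESN3 lies on chromosome 11 in a run of 20 measured neighbours of which 8 fell, and the part of position was not tested. GABARAPL1, of autophagosome formation, fell by 0.72 and passed in only 4 of the 11 fits that leave out 1 array. Of 11 STAT3 targets 2 fell, JAK3 (-1.48) and the small heat shock protein HSPB8 (-1.45), and both calls were lost without the HaCaT-vector array of date 6 (adjusted p = 0.252 and 0.113).

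**Figure D4:**
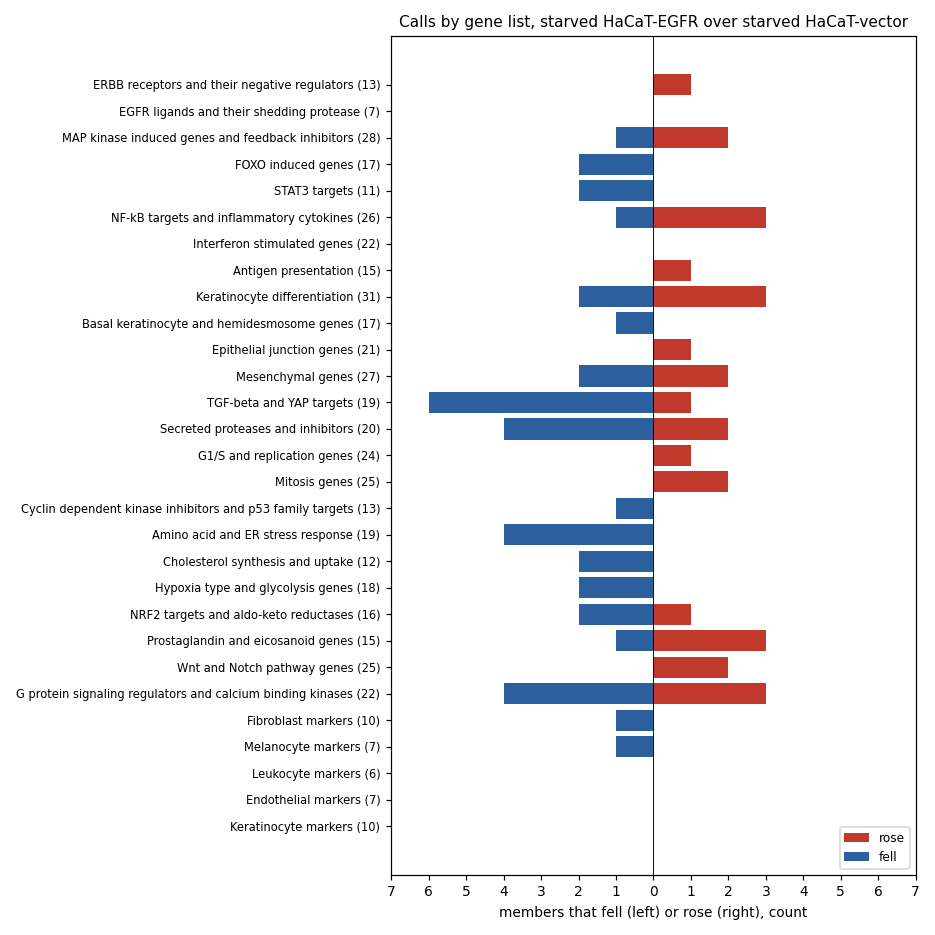
For each gene list (y axis, with the number of members measured), the count of members that fell (bars to the left) and rose (bars to the right) in starved HaCaT-EGFR over starved HaCaT-vector. The TGF-β and YAP list has the longest bar, 6 of 19 that fell.

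All 4 ID genes fell in HaCaT-EGFR. They belong to a list of 19 measured TGF-β, BMP and YAP targets, of which 6 fell and 1 rose, beside 3.94% and 3.95% of all genes, with a list median of -0.39, but without the HaCaT-vector array of date 6 only 2 fell and none rose. The 250 bases before the start of each ID gene are printed because the 4 genes moved together. Sequences are from RefSeq (GRCh38.p14) and read 5′ to 3′ on the gene's strand. Capitals mark GGNGCC on either strand, a GC-rich element of the kind that BMP SMADs bind, which occurs in 59.2% of all 27305 promoter windows of this length. Matches are letters only and not shown to be bound.
ID1 (chr20:31605039-31605288, + strand): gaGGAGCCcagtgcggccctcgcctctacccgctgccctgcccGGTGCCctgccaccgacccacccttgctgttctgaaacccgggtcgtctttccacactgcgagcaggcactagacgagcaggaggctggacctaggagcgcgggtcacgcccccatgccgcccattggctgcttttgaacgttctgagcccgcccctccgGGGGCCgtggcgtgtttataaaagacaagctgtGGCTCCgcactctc
ID2 (chr2:8681806-8682055, + strand): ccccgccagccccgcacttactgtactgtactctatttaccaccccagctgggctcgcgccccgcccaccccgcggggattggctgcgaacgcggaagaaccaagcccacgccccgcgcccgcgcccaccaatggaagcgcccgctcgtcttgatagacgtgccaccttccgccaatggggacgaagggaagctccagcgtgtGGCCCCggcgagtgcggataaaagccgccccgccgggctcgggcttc
ID3 (chr1:23559502-23559751, - strand): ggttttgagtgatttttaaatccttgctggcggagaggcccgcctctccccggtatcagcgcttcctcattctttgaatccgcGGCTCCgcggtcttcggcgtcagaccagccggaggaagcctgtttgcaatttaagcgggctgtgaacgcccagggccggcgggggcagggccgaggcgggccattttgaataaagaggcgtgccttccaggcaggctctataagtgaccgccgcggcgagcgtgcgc
ID4 (chr6:19837120-19837369, + strand): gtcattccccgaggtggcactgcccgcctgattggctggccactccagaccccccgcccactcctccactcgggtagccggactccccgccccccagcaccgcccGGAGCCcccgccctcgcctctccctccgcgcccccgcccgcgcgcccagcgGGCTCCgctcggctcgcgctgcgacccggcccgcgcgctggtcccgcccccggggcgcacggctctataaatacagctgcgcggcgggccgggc

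Each of the 4 windows held the element, 4 times in ID1, 2 times in ID4 and once in ID2 and in ID3. Beside the fall of ID4 given above, the other 3 changed less. ID3 ranged from 7.52 to 8.61 (median 8.07) in the HaCaT-EGFR arrays and was 9.76 (date 4), 9.86 and 9.84 (date 5) and 10.05 (date 6) in the HaCaT-vector arrays. The groups lay more than 1 log2 unit apart, and the difference was -1.83 log2 units (SE 0.315, adjusted p = 6.29e-05), or 3.57-fold lower. In HaCaT-vector ID2 read 7.94, 8.12, 7.97 and 7.94 in the order of the dates, and in HaCaT-EGFR it lay between 6.04 and 7.09 with a median of 6.42. It differed by -1.48 log2 units (SE 0.278, adjusted p = 0.000244), or 2.78-fold lower. ID1, named after its values were seen, ranged from 7.38 to 8.69 against 8.90 to 9.18 and differed by -0.98 log2 units (SE 0.318, adjusted p = 0.0464), or 1.98-fold lower, a call that 8 of the 11 leave-one-out fits lost. ID3 was lost without the HaCaT-vector array of date 6 (adjusted p = 0.0924), while ID2 and ID4 passed in all 11. In serum ID4 differed by -2.95, and ID1, ID2 and ID3 differed by 0.77, -0.31 and 0.06 with adjusted p of 0.0916, 0.688 and 0.989. PMEPA1, a SMAD-induced inhibitor of TGF-β signalling, changed by -1.36, SKIL, a SMAD corepressor named after its value was seen, by -0.66, and LTBP2, a matrix protein related to TGF-β carriers, rose by 1.48. All 3 calls were lost without the HaCaT-vector array of date 6.

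Of 20 measured secreted proteases and their inhibitors 4 fell and 2 rose, beside 3.94% and 3.95% of all genes, and 2 fell and 1 rose without the HaCaT-vector array of date 6. The falls were MMP13, described above, and MMP7, TIMP3 and PLAT. MMP7, matrilysin, an epithelial matrix protease, read 5.41 at the lowest, 5.93 at the median and 6.54 at the highest in HaCaT-EGFR, against 8.32, 8.55, 8.32 and 8.38 in HaCaT-vector. The difference was -2.38 log2 units (SE 0.428, adjusted p = 0.000129), or 5.22-fold lower. MMP7 lies in the run of chromosome 11 neighbours that holds SESN3. TIMP3, an inhibitor of metalloproteases and sheddases, read 4.47 to 6.04 (median 5.13) in HaCaT-EGFR and 7.26, 7.56, 7.66 and 7.75 in HaCaT-vector and differed by -2.41 log2 units (SE 0.503, adjusted p = 0.000897), or 5.32-fold lower. PLAT, tissue plasminogen activator, fell by 1.26. TIMP1, another inhibitor, rose by 1.16 and passed in all 11 leave-one-out fits, as did MMP13 and MMP7. The cysteine protease CTSV rose by 0.73.

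Of 27 mesenchymal genes 2 rose and 2 fell, where all genes gave 3.95% and 3.94%. FN1, fibronectin of the extracellular matrix, ranged from 7.84 to 9.43 (median 8.85) in the HaCaT-EGFR arrays and was 6.14 (date 4), 6.01 and 6.15 (date 5) and 6.11 (date 6) in the HaCaT-vector arrays. The difference was 2.64 log2 units (SE 0.328, adjusted p = 2.13e-07), or 6.25-fold higher, and the lowest HaCaT-EGFR array was one of date 6. VIM, the intermediate filament vimentin, was low in both lines, at 4.92 to 5.82 (median 5.41) in HaCaT-EGFR and 4.00, 4.12, 4.21 and 4.59 in HaCaT-vector, and differed by 1.15 log2 units (SE 0.313, adjusted p = 0.014), or 1.77 without the HaCaT-vector array of date 6. LUM (-2.61) and N-cadherin, CDH2 (-0.90), were the falls, both lost without the HaCaT-vector array of date 6 (adjusted p = 0.239 and 0.346). Of 21 epithelial junction genes 1 rose, the tight junction protein CGN (0.52), and of 17 basal and hemidesmosome genes 1 fell, the integrin ITGA2 (-0.62). These 2 passed in 7 and 2 of the 11 leave-one-out fits.

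Of 26 measured NF-κB targets and inflammatory cytokines 3 rose and 1 fell, beside 3.95% and 3.94% of all genes, and none passed without the HaCaT-vector array of date 6. The risers were the neutrophil chemokines CXCL2 and CXCL3 and the cytokine IL1B. In date 6 alone CXCL2 and CXCL3 differed by 1.42 and 1.44. The promoters of the 2 chemokines are printed for the same reason as those of the ID genes. Capitals mark GGG and TTCC with any 3 bases between them on either strand, a form of the κB element, whose overlapping matches on the 2 strands merge here into 1 run. It occurs in 5.61% of all windows.
CXCL2 (chr4:74099196-74099445, - strand): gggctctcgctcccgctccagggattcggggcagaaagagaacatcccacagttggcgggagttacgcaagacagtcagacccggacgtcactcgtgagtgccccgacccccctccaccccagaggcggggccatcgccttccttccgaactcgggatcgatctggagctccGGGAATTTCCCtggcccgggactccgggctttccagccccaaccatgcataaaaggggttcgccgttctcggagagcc
CXCL3 (chr4:74038690-74038939, - strand): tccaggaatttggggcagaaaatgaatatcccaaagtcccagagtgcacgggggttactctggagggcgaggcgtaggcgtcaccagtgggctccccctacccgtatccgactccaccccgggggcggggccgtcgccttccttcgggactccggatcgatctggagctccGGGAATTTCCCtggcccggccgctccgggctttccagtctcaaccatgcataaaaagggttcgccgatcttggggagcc

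In HaCaT-vector CXCL3 read 6.05, 5.73, 5.68 and 5.92 in the order of the dates, and in HaCaT-EGFR it lay between 6.84 and 8.41 with a median of 7.47. It differed by 1.68 log2 units (SE 0.337, adjusted p = 0.000589), or 3.2-fold higher. CXCL2 read 6.90 at the lowest, 7.82 at the median and 8.38 at the highest in HaCaT-EGFR, against 6.45, 6.06, 6.25 and 6.19 in HaCaT-vector. The difference was 1.46 log2 units (SE 0.336, adjusted p = 0.00283), or 2.75-fold higher, with the lowest HaCaT-EGFR array, of date 6, still above every HaCaT-vector array. On its other probe sets, where both lines averaged below 5, CXCL2 differed by 0.27 and 0.24 with adjusted p of 0.521 and 0.792 (limma). IL1B ranged from 8.68 to 8.99 (median 8.90) in the HaCaT-EGFR arrays and was 7.61 (date 4), 7.56 and 7.53 (date 5) and 7.57 (date 6) in the HaCaT-vector arrays. Here the HaCaT-EGFR arrays were tight and the difference was 1.31 log2 units (SE 0.253, adjusted p = 0.000354), or 2.47-fold higher. IL1A, its relative, differed by 0.70 with an adjusted p of 0.283. TNFAIP2 went the other way, from 10.36, 10.40, 10.47 and 10.48 in HaCaT-vector to 7.68 to 8.97 (median 8.47) in HaCaT-EGFR, -2.08 log2 units (SE 0.588, adjusted p = 0.0187), or 4.24-fold lower. With EGF, CXCL3 and CXCL2 differed between the lines by 2.64 and 2.17, and in serum by 0.55 (adjusted p = 0.388) and 1.14 (adjusted p = 0.00832).

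None of 22 interferon-stimulated genes passed in starved cells (limma), 4 being lower at an unadjusted p under 0.05, and the list median was -0.27. In serum 4 rose (RSAD2, USP18, IFIT1 and IFI44), beside 3.97% of all genes, and the median was 0.48. RSAD2, an antiviral enzyme, differed by -0.70 with an adjusted p of 0.239 starved and by 1.40 in serum, and the difference of these values passed its own test (adjusted p = 0.0149). OASL and OAS2, both sensors of double-stranded RNA or their relatives, differed by -1.003 with an adjusted p of 0.0755 and -1.08 with an adjusted p of 0.159. Their HaCaT-EGFR arrays were all below the HaCaT-vector arrays, but 19.7% of all genes had no overlap, so no difference is read from that. Of 15 antigen presentation genes 1 rose, HLA-B (0.45), beside 3.95% of all genes, and not without the HaCaT-vector array of date 6.

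Keratinocyte differentiation genes gave 3 rises and 2 falls of 31, where 3.95% and 3.94% of all genes did so, with a list median of 0.18. Beside PI3, the serpin SERPINB3 read 4.54 to 6.74 (median 6.10) in HaCaT-EGFR and 3.11, 3.65, 3.76 and 3.79 in HaCaT-vector and differed by 2.48 log2 units (SE 0.503, adjusted p = 0.000634), or 1.67 (adjusted p = 0.406) without the HaCaT-vector array of date 6, and LCE3D, of the late cornified envelope, rose by 1.75. KRT13, a keratin of internal epithelia, read 7.30 to 9.45 (median 9.26) in HaCaT-EGFR and 11.07, 11.15, 11.25 and 11.35 in HaCaT-vector and differed by -2.42 log2 units (SE 0.629, adjusted p = 0.00937), or 5.34-fold lower. KLK7, a protease of corneocyte shedding, fell by 1.41. PI3 and KLK7 were the 2 that passed without the HaCaT-vector array of date 6, and in serum they were the 2 that passed, by 3.29 and -1.31.

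**Figure D5:**
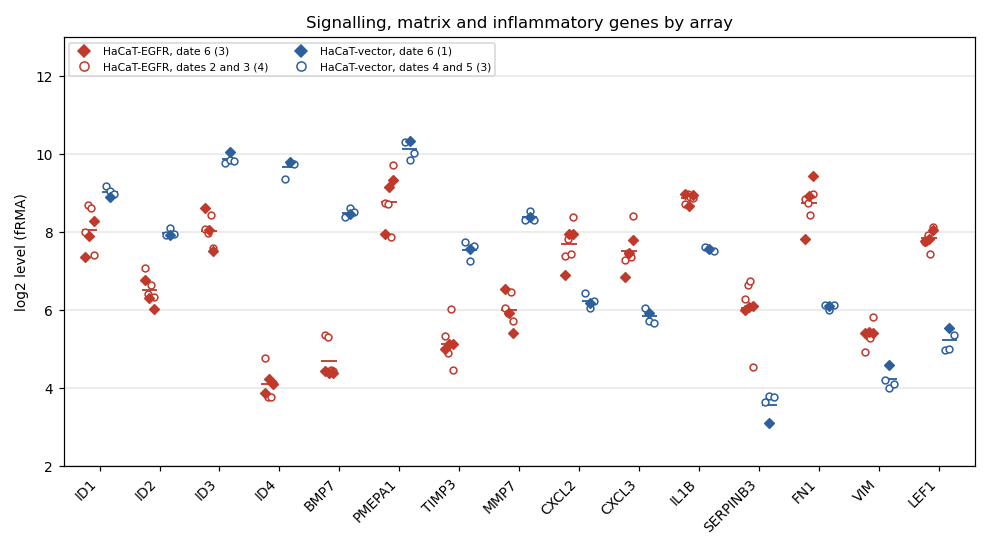
The deposited log2 level of 15 genes (x axis) in each starved array, with diamonds for date 6, circles for other dates and a line at each group's mean. The 4 ID genes lie lower and CXCL2, CXCL3, IL1B, FN1 and LEF1 higher in HaCaT-EGFR, with no overlap of the lines.

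Prostaglandin genes had 3 rises and 1 fall among 15, beside 3.95% and 3.94% of all genes. PLA2G4A releases arachidonic acid and rose by 1.41, PTGIS makes prostacyclin and rose by 1.55, and the prostaglandin E2 receptor PTGER2 rose by 1.38. In serum the same 3 were higher by 2.03, 1.08 and 1.15. ALOX12B, a lipoxygenase of the skin barrier, fell by 1.52. PTGER2 and ALOX12B passed in every leave-one-out fit, the other 2 not without the HaCaT-vector array of date 6 (adjusted p = 0.375 and 0.15). In the Wnt and Notch list 2 of 25 rose, against the same 3.95%. In HaCaT-vector LEF1, the transcription factor that carries β-catenin to Wnt targets, read 4.99, 5.01, 5.38 and 5.53 in the order of the dates, and in HaCaT-EGFR it lay between 7.45 and 8.13 with a median of 7.82. The difference was 2.62 log2 units (SE 0.441, adjusted p = 4.78e-05), or 6.14-fold higher, and 3.20 in serum. DKK3, of a family of secreted Wnt regulators, rose by 0.75, but not without the HaCaT-vector array of date 6.

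Regulators of G protein and calcium signalling gave 3 rises and 4 falls of 22, beside 3.95% and 3.94% of all genes. RGS4, which speeds the shut-off of G proteins, read 5.45 to 6.36 (median 5.97) in HaCaT-EGFR and 4.04, 4.04, 4.13 and 4.16 in HaCaT-vector and differed by 1.90 log2 units (SE 0.416, adjusted p = 0.00167), and its relative RGS17 and the γ subunit GNG11 rose by 0.85 and 0.69. DAPK1, described above, and the kinase CAMK1D (-0.91) fell, with RGS3 (-0.65) and RGS10 (-0.51), which were named after their values were seen. Only DAPK1 of the 7 passed without the HaCaT-vector array of date 6.

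Of the genes of G1/S and replication 1 of 24 rose and none fell, and of those of mitosis 2 of 25 rose and none fell, close to the 3.95% of all genes that rose. They were E2F1 (1.03), the S phase transcription factor, TPX2 (0.95), of spindle assembly, and the ubiquitin-conjugating enzyme UBE2C (0.93). All 3 lie on chromosome 20, as do PI3 and PTPN1, and 109 of 588 genes of that chromosome rose (18.5%). CDKN1A, the inhibitor p21, read 7.86 to 8.94 (median 8.44) in HaCaT-EGFR and 9.36, 9.55, 9.56 and 9.68 in HaCaT-vector and differed by -1.18 log2 units (SE 0.256, adjusted p = 0.00144), or 2.27-fold lower, the one change among 13 cyclin-dependent kinase inhibitors and p53 targets. UBE2C alone of these 4 passed without the HaCaT-vector array of date 6.

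Of 19 genes that respond to amino acid shortage or ER stress, 4 fell and none rose, and of all genes 3.94% fell and 3.95% rose. ASNS, asparagine synthetase, read 9.28 to 10.16 (median 9.69) in HaCaT-EGFR and 11.36, 11.46, 11.46 and 11.48 in HaCaT-vector and differed by -1.78 log2 units (SE 0.348, adjusted p = 0.000404), or 3.43-fold lower. DDIT4, an inhibitor of mTOR, the transcription factor ATF4 and its target TRIB3 changed by -0.83, -0.64 and -0.56. None of the 4 passed without the HaCaT-vector array of date 6, and in serum 6 of the list fell, beside 3.9% of all genes. Of 12 cholesterol genes 2 fell, SREBF2 (-0.62), the regulator of the pathway, and SQLE (-0.49), squalene epoxidase, and the list median was -0.42. Of 18 hypoxia and glycolysis genes 2 fell, the glucose transporter SLC2A3 and carbonic anhydrase CA12 (-0.84). SLC2A3 read 4.68 at the lowest, 5.20 at the median and 5.35 at the highest in HaCaT-EGFR, against 7.35, 7.35, 7.22 and 7.21 in HaCaT-vector. The difference was -2.15 log2 units (SE 0.257, adjusted p = 1.01e-07), or 4.43-fold lower, passed in every leave-one-out fit and was -1.59 in serum. Among 16 NRF2 targets and aldo-keto reductases, AKR1B10 (-1.74) and the transporter ABCC3 (-1.15) fell and GCLM (0.44), of glutathione synthesis, rose. SREBF2 and SLC2A3 were the ones among these last 7 genes that passed without the HaCaT-vector array of date 6.

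Few genes had unequal differences between the lines starved and in serum. The starved difference rests on date 6 and the serum difference on date 1, with another extraction per the study's sample sheet. Medium, date and any difference in extraction therefore cannot be told apart here. The starved minus the serum difference passed for 47 genes (0.238%), 19 higher (0.0961%) and 28 lower (0.142%) in starved cells, and 32 of the 47 were also called between the starved lines. At an unadjusted p under 0.05 there were 1160. Without the HaCaT-vector starved array of date 6 the count was 6. It was 28 without replicate 2 of HaCaT-vector in serum, 31 without replicate 2 of HaCaT-EGFR in serum and 34 to 61 without any 1 of the others. The genes named first on the higher side were SPANXB1, a gene of spermatids, THBS2, a matrix thrombospondin, CCBE1, a secreted factor of lymphatic growth, PCDH10 and the noncoding LINC01224. SPANXB1 ranged from 3.36 to 4.36 (median 3.70) in the HaCaT-EGFR arrays and was 1.22 (date 4), 1.08 and 1.30 (date 5) and 1.14 (date 6) in the HaCaT-vector arrays. All its levels in both lines were below 5. The starved difference was 2.56 and that in serum -0.07 (interaction 2.64, adjusted p = 4.07e-05). In HaCaT-vector THBS2 read 7.76, 7.95, 7.79 and 7.65 in the order of the dates, and in HaCaT-EGFR it lay between 9.20 and 9.95 with a median of 9.71. The difference of 1.84 stood against -0.72 in serum (interaction 2.56, adjusted p = 0.000211). CCBE1 and LINC01224 differed by 1.57 and 2.08 starved and by -0.64 and 0.10 in serum, and PCDH10 by 1.27 in serum. On other probe sets CCBE1 differed by 0.75 and 0.59 starved, with adjusted p of 0.255 and 0.318. Without the HaCaT-vector array of date 6 the starved difference of LINC01224 was 2.70.

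On the lower side stood C16orf54, MPPED2, ID4, the uncharacterized LOC105379362 and PPARGC1A, the coactivator of mitochondrial biogenesis. C16orf54 read 2.97 at the lowest, 3.37 at the median and 4.51 at the highest in HaCaT-EGFR, against 6.35, 6.52, 6.54 and 6.55 in HaCaT-vector. The starved difference was -3.04 and that in serum 0.07 (interaction -3.11, adjusted p = 1.14e-06). PPARGC1A ranged from 3.87 to 4.44 (median 4.11) in the HaCaT-EGFR arrays and was 6.42 (date 4), 6.94 and 6.75 (date 5) and 7.41 (date 6) in the HaCaT-vector arrays. The difference was -2.78 log2 units (SE 0.27, adjusted p = 8.81e-10), or -1.86 without the HaCaT-vector array of date 6, against -0.80 in serum (interaction -1.98, adjusted p = 0.00393). MPPED2 differed by -0.74 and LOC105379362 by -0.35 in serum, against -3.63 and -2.40 starved, and ID4 by -2.95 against -5.58. In these 5 genes the starved HaCaT-EGFR cells differed from starved HaCaT-p65 by between -1.46 (ID4) and 0.06 (C16orf54), and in each gene every HaCaT-vector array was above every array of the other starved lines. SPANXB1, PCDH10, C16orf54, MPPED2, LOC105379362 and PPARGC1A averaged below 5 over the 58 arrays and were not tested where such genes were left out.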

How the data were processed

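The study measured RNA on Affymetrix U133 Plus 2.0 arrays after NuGEN Ovation amplification. The authors deposited log2 values, made with fRMA and with the effect of processing date removed, and the submitters' processing notes name limma. Refitting the dates to the deposited values gave coefficients of at most 1.2e-08. The labels give an RNeasy extraction for all arrays, whereas the study's sample sheet gives Trizol for date 6. Precision is limited by how many arrays each group has.

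Of 54675 probe sets, 41097 had 1 gene symbol, 1801 several and 11777 none in the platform annotation. Each of 19775 genes was represented by its single-symbol probe set with the highest mean over the 58 arrays. The log2 values were fitted with limma 3.58.1 (R 4.3.3) for 18 conditions and 6 dates, which left 35 residual degrees of freedom, and p-values were adjusted over all genes with a threshold of 0.05. Tables and figures were made with Python 3.11.15, pandas 2.3.3 and matplotlib 3.10.9. The fit was tested on simulated data. Groups come from the labels. Alternatives changed the arrays in the fit, the date term, the treatment of 8 h arrays, the normalization, the probe set, a filter at a mean of 5, the variance model and the replicate number as a block, and left out each array in turn.

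Named genes were all EGFR probe sets, the 12 largest rises and falls among genes that passed whichever of the 11 arrays was left out and kept their sign in date 6, up to 6 members of each list by size of change, and the 5 largest starved minus serum differences in each direction among genes that also passed the starved comparison. Of 531 genes in the lists 486 were measured. The comparison, its members and the lists were chosen with earlier results of these data known. Promoter sequences were found for 6 of 6 genes looked up in RefSeq.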

Additional observations from a re-analysis of the deposited data

Results flagged for a closer look

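Single arrays stood far from the rest of their group in 15 of 212 groups of named gene values, where chance marks about 1 in 20. In HaCaT-vector the array of date 4 was lowest for ID4 (9.372, next 9.756), MMP13 (8.812, next 9.498), C16orf54 (6.346, next 6.522) and GABARAPL1 (8.632, next 8.789), and highest for HMGA2 (8.1, next 7.924). Replicate 1 of date 5 was highest for ID2 (8.121, next 7.966) and lowest for ASNS (11.36, next 11.46), and the array of date 6 was highest for SKIL (10.18, next 9.968). In HaCaT-EGFR the 4 h replicate 1 of date 6 was lowest for DUSP4 (7.609, next 8.532), SLC2A3 (4.679, next 5.118) and GCLM (8.851, next 9.041), and replicate 3 of date 3 for SERPINB3 (4.541, next 6.01) and KRT5 (11.51, next 12.17). On date 2 the 8 h array was lowest for MMP13 (5.096, next 5.771) and the 4 h array highest for C16orf54 (4.512, next 3.452).

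The difference between the lines was not the same starved and in serum for 12 of the named genes (limma interaction). On the log2 scale the starved minus the serum difference was 2.156 for PCDH10, 2.635 for SPANXB1, 2.561 for THBS2, 2.208 for CCBE1 and 1.983 for LINC01224. It was -2.625 for ID4, -2.896 for MPPED2, -3.113 for C16orf54, -2.054 for LOC105379362, -1.979 for PPARGC1A, -2.094 for RSAD2 and -1.892 for ID3.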

How the results depend on the processing

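The count of 1560 genes between the starved lines was 370 from the 11 arrays alone (5 residual degrees of freedom), 5212 with no date term and 812 in date 6 alone, and 372 to 1779 when 1 array was left out. The other settings gave 1251 to 1624, and all of the 1560 that were tested kept their sign except under the probe set with the largest SD, where 1501 did and 3 were called the other way. With EGF the count of 1469 became 482 from its own arrays, 4968 with no date term and 378 to 1611 without 1 array. In serum 1556 became 2438 with no date term and 1168 to 1544 without 1 array. The 47 starved minus serum differences became 24 from their own arrays, 533 with no date term and 6 to 61 without 1 array. Against HaCaT-p65, 3058 became 1425 from those arrays alone, 2007 with 8 h arrays as conditions of their own and 2196 to 3218 without 1 array, and median centring moved the share of higher genes from 52.4% to 38%.

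With the replicate block the counts were 1610 starved, 1510 with EGF, 1655 in serum, 58 for the starved minus serum difference and 3217 against HaCaT-p65. Same-numbered arrays of the starved lines deviated together at r of -0.00963, 0.0537 and 0.0438, so the numbers were not taken to pair the samples.

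Of the 106 named genes, 47 neither lost a call nor turned their sign under the settings run for them. That count is no measure of how robust the results are. The leading rises and falls were chosen for passing whichever array was left out, and genes without a call had none to lose. The filter at a mean of 5 left 12 of the 106 untested. Reversals, none of which passed, were HBEGF with 8 h arrays apart (-0.1735), without the HaCaT-vector array of date 6 (-0.2018) and without the HaCaT-EGFR 8 h array of date 6 (-0.1185), in a range of -0.2018 to 0.3125 when 1 array was left out, EGFR with the largest-SD probe set (-0.4629) and without the HaCaT-vector array of date 6 (-0.00739, range to 0.1395), and TGFA (-0.05351) and IFI44 (-0.2694) with the largest-SD probe set. The cause of these shifts was not tested.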

Other observations

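Calls were unevenly spread over the chromosomes, as seen after the values were known and given here as a description. Of 19690 genes with a chromosome, 109 of 588 on chromosome 20 rose (18.5%) and 49 fell (8.33%), beside 3.95% and 3.94% of all genes, and in serum 112 rose and 50 fell. On chromosome 19, 122 of 1320 rose (9.24%), and 138 in serum. On chromosome 11, 112 of 1143 fell (9.8%), and on chromosome 22, 41 of 460 (8.91%), against 122 and 62 in serum. Chromosome 18 gave unequal counts in the 2 media, with 49 of 303 genes that rose starved (16.2%) and 12 in serum (3.96%), a difference that was not tested. In serum 63 genes of chromosome 20 (10.7%) were lower in HaCaT-vector than in parental HaCaT and 31 (5.27%) higher in HaCaT-EGFR.

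Neighbouring genes moved together within these chromosomes. In windows of 20 measured neighbours, 14 rose between ARFGEF2 and BCAS4 on chromosome 20, among them CEBPB, PTPN1 and PTGIS, and 15 in serum. The window's mean level was 8.31 to 8.53 in the HaCaT-EGFR arrays and 7.71 to 7.78 in the HaCaT-vector arrays, and 10 of the 20 were lower in HaCaT-vector than in the parental line in serum. Without the HaCaT-vector array of date 6, 7 of the 14 passed. Farther along the same chromosome, 10 fell between ZBP1 and PRELID3B, among them PMEPA1, and 3 of them without that array. On chromosome 11, 8 fell between ENDOD1 and MMP7, SESN3 and MMP7 among them, with 10 in serum and 2 without that array. On chromosome 15, 11 rose between MPI and FBXO22, 1 of them without that array. On chromosome 18, 10 rose between MALT1 and VPS4B, among them BCL2 and CCBE1, with 2 in serum and 3 without that array. On chromosome 22, 9 fell between MGAT3 and EP300-AS1, ATF4 and EP300 among them, with 13 in serum and 1 without that array.

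Genes of zinc finger transcription factors rose often. Of 502 measured genes with a ZNF symbol 66 rose (13.1%) and 7 fell, 74 and 7 in serum and 51 and 5 in date 6 alone, but 13 rose without the HaCaT-vector array of date 6. On chromosome 19, where many such genes lie in clusters, 54 of 234 rose (23.1%), or 12 without that array, against 12 of 268 on other chromosomes (4.48%), 68 of 1086 other genes of chromosome 19 (6.26%) and 3.95% of all genes. In the window between ZNF382 and ZNF793 10 of 20 rose, and 8 in serum.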
